A study of Mus musculus with 136 samples.

Results

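H3K27ac, acetylation of lysine 27 of histone H3, marks active promoters and enhancers, whereas H3K4me3 marks active promoters and H3K9me3 marks heterochromatin and silenced repeats. Acetylated regions away from H3K4me3 are the usual map of enhancers, the elements through which transcription factors act on promoters at a distance, and in embryonic stem cells (ESCs) they surround the genes of the pluripotency network. The regions described here are 2000 H3K27ac peaks of WT ESCs, out of 128247 in the list. They overlap no H3K4me3 peak and no H3K9me3 region of the same experiment, and they were chosen by their H3K27ac fold enrichment, the highest among the 54073 peaks that meet this exclusion. Fold enrichment is the height of a peak over local background, as the authors' peak caller gave it.

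The series held 136 samples of mouse ESCs (line E14JU), grown on gelatin in serum with leukaemia inhibitory factor. MCM2-2A cells carry a mutated histone-binding domain of MCM2, a subunit of the replicative helicase that handles parental histones at the fork. Used here were ChIP-seq lists of SUZ12, which PRC2 (Polycomb repressive complex 2) needs for its methylation of H3K27, from sonicated, crosslinked chromatin of MCM2-2A clones 439 and 442 and of WT clone 410 (3 replicates each). Histone marks were profiled by native ChIP-seq on MNase-digested chromatin of WT clone 410, with 2 replicates per mark in the original experiment (H3K27ac, H3K4me3, H3K9me3, H3K27me3) and 3 in the rescue experiment (H3K4me3, H3K9me3, H3K27me3). Both kinds of experiment had a Drosophila spike-in, and WT was represented by 1 clone. The lists merge the replicates and carry neither values per replicate nor counts, so depth is unknown and every value below is 1 value per list.

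The 2000 regions were compared with 2 other sets. The weaker peaks were the remaining 52073 peaks that meet the same exclusion, and the H3K4me3-marked peaks were the 2000 strongest H3K27ac peaks that overlap original H3K4me3 and no original H3K9me3. Shares carry 95% Wilson intervals, which cover counting error only, and were compared by two-sided Fisher's exact tests, adjusted by Benjamini-Hochberg over 17 tests. Tests in width classes, tests inside and outside genes, and tests under each alternative were adjusted as separate families. The tests treat peaks as separate units of these pooled lists, and they hold no replicate error of the cells. Of the 17 tests, 10 passed an adjusted p of 0.05. These include nearness to gene ends and position inside genes against H3K4me3-marked peaks, differences that the choice of the sets favoured.

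The cells carried the chromatin of ESCs. All 8 ESC marker genes had an H3K27ac peak within 2500 bp of the gene, with a median highest fold enrichment of 37.9, from 10.5 at Klf4 to 40.8 at Tdgf1. Fibroblast genes had one in 1 of 6 cases, neural progenitor genes in 3 of 5, trophoblast genes in 3 of 4 and endoderm genes in 3 of 4. The strongest of these was 5.68, at Thy1.

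Fold enrichment, which chose the 2000 regions, ran from 6.01 to 23.5 with a median of 7.02. It was 3.32 at the median of the weaker peaks and 28.3 at that of the H3K4me3-marked peaks, whose lowest value was 22.9. The strongest of the 2000 regions ranked 2166 in the whole list, where the upper quartile began at 5.89. All 2000 regions thus lay in the upper quartile of the whole list. At the limit, 25 regions inside and 15 peaks outside shared the value 6.01, since ties were taken by position. The last regions inside were a peak of 578 bp nearest to Slc16a1, a lactate transporter, and one of 724 bp nearest to Tmem68, and the first outside were peaks of 388 bp nearest to Triqk and 310 bp nearest to Rps6ka1. The 2000 regions had a median width of 850 bp, compared with 318 bp in weaker peaks and 1797 bp in H3K4me3-marked peaks. They covered 1.92 Mb in total.

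**Figure D1:**
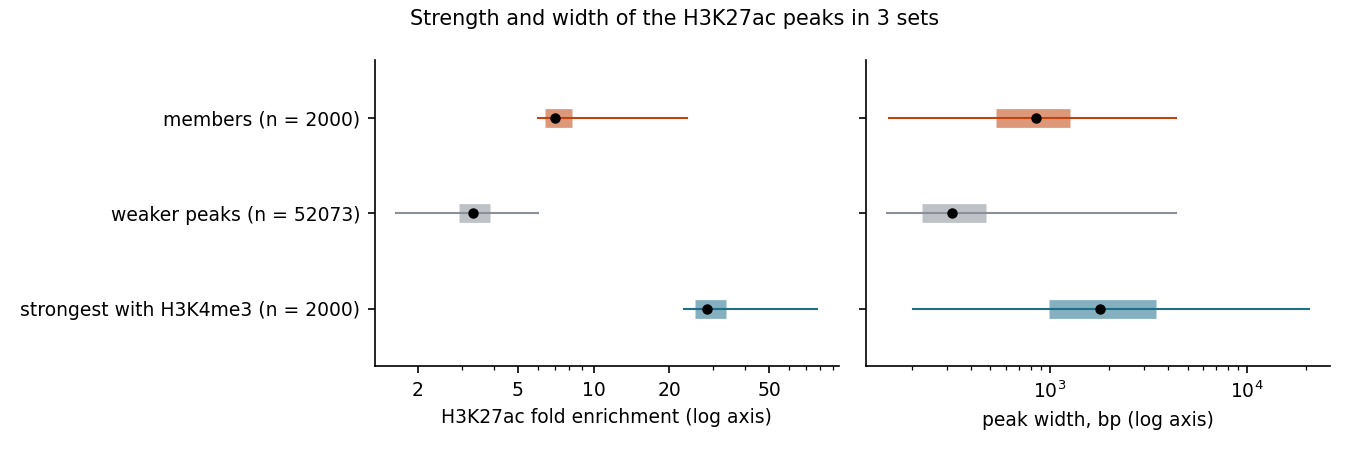
H3K27ac fold enrichment (left) and peak width in bp (right), both on log axes, in the 2000 regions ("members"), the weaker peaks and the strongest H3K4me3-marked peaks. Lines run from the lowest to the highest value, thick bars span the middle 50% of peaks and dots are medians (7.02, 3.32 and 28.3 for fold enrichment).

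The label of an H3K4me3-free region held for the original list and in part for the rescue list. By the rule no region overlapped original H3K4me3, but 647 of 2000 (32.4%) had such a peak within 1 kb, and the median distance was 3199 bp. In the rescue experiment, a list that the rule did not use, 631 of 2000 regions (31.6%, interval 29.6 to 33.6) overlapped an H3K4me3 peak, against 6547 of 52073 weaker peaks (12.6%, interval 12.3 to 12.9). Among all 128247 H3K27ac peaks the share was 55.8%. The difference between the 2000 regions and the weaker peaks was 18.98 percentage points (interval 17.0 to 21.1), with an adjusted p of 7.65e-103 by Fisher's exact test. The H3K4me3-marked peaks all overlapped rescue H3K4me3 (2000 of 2000), which the rule on H3K4me3 leaves without a test. Rescue H3K4me3 peaks under the regions were low, with a median fold enrichment of 4.76 over 657 peaks, against 8.93 over all 110840 rescue peaks, and 104 of the 657 were above that median. Where present, rescue H3K4me3 covered a median of 41.4% of a region. The remaining 1369 regions overlapped neither H3K4me3 list.

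Width moved with this difference. Among peaks under 500 bp, rescue H3K4me3 was found at 28.9% of 436 regions and 10.6% of 40353 weaker peaks. Among peaks of 1000 bp or more it was found at 32.3% of 796 regions and 29.2% of 1732 weaker peaks, a difference of 3.13 percentage points that did not pass (adjusted p = 0.113, Fisher's exact test).

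Rescue H3K9me3 lay over 750 of 2000 regions (37.5%, interval 35.4 to 39.6), against 7449 of 52073 weaker peaks (14.3%, interval 14.0 to 14.6) and 315 of 2000 H3K4me3-marked peaks (15.8%, interval 14.2 to 17.4). Its share over all H3K27ac peaks was 19.5%. The excess was 23.2 percentage points over weaker peaks (interval 21.1 to 25.4, adjusted p = 5.45e-137) and 21.8 over H3K4me3-marked peaks (interval 19.08 to 24.4, adjusted p = 5.11e-55, Fisher's exact tests). None of the 3 sets overlapped original H3K9me3, by their definition. The rescue list covered 464.6 Mb, compared with 199.5 Mb in the original list. The median region with rescue H3K9me3 was 100% covered by it, 552 of the 750 were wholly covered, and the H3K27ac summit lay inside it at 676 regions. Original H3K9me3 lay within 10 kb of 198 of the 750 (26.4%), against 580 of all 2000 regions (29.0%). The rescue H3K9me3 regions involved had a median width of 6911 bp, against 2121 bp for all 104026 of that list.

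The difference in H3K9me3 was found at each width and on both sides of gene boundaries. Among peaks under 500 bp, 33.7% of regions and 13.1% of weaker peaks overlapped rescue H3K9me3, among those of 500 to 1000 bp 35.9% and 17.8%, and among those of 1000 bp or more 41.1% and 22.2%. Inside protein-coding genes the shares were 21.9% of 845 regions and 7.55% of 31638 weaker peaks, and outside them 48.9% of 1155 regions and 24.8% of 20435 weaker peaks. The adjusted p was at most 6.95e-38 inside and outside genes and at most 1.22e-21 in the width classes (Fisher's exact tests).

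**Figure D2:**
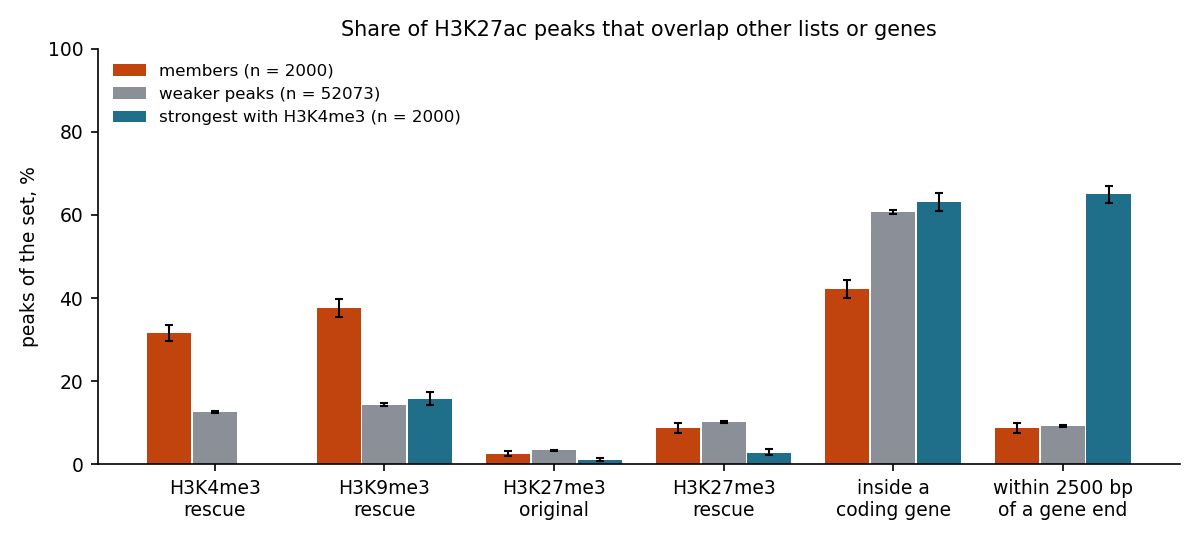
Percentage of peaks in the 2000 regions ("members"), the weaker peaks and the strongest H3K4me3-marked peaks that overlap each list or gene position. Error bars are 95% Wilson intervals. Rescue H3K4me3 of the third set (2000 of 2000) is not drawn because H3K4me3 defined that set. Rescue H3K9me3 stands at 37.5% in the members, 14.3% in weaker peaks and 15.8% in H3K4me3-marked peaks.

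Both rescue marks were more frequent at stronger acetylation, within the 2000 regions and beyond them. In the 500 strongest, with fold enrichment from 8.20 up, rescue H3K9me3 lay over 49.4% (interval 45.0 to 53.8) and rescue H3K4me3 over 40.6% (interval 36.4 to 45.0). In the 500 weakest of the 2000 the shares were 30.8% (interval 26.9 to 35.0) and 25.2% (interval 21.6 to 29.2). Median width also differed, 1066 bp in the 500 strongest and 758 bp in the 500 weakest. When all 54073 peaks were ranked in bands of 2000, the band just below the regions had 28.3% with rescue H3K9me3 and 24.0% with rescue H3K4me3, and the weakest full band had 11.0% and 10.7%. No other band reached the shares of the 2000 regions.

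**Figure D3:**
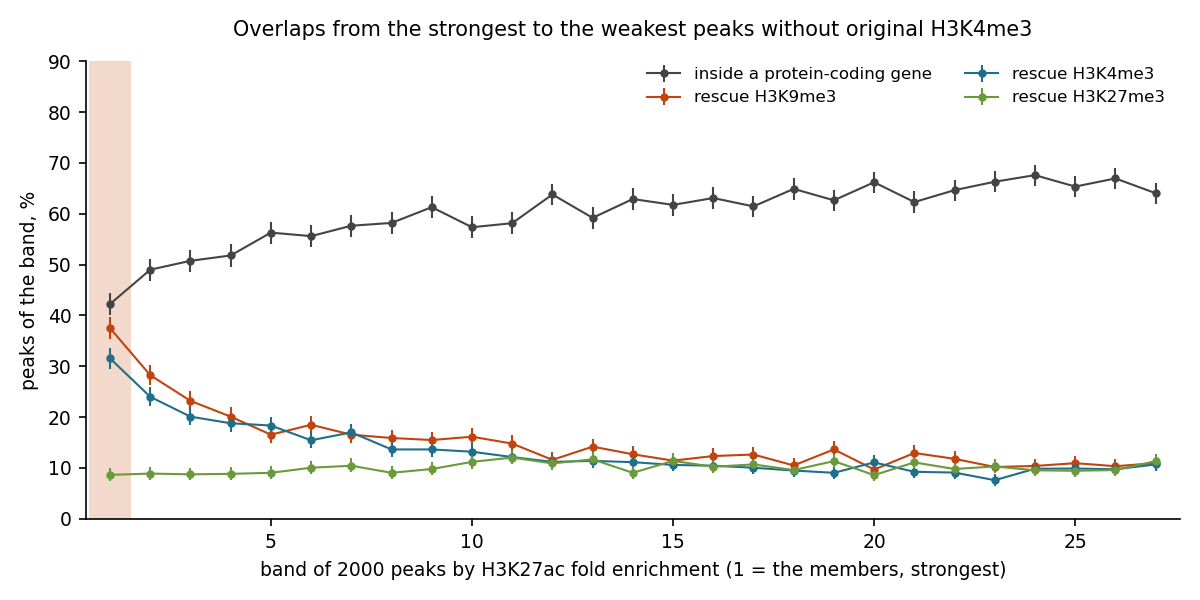
Percentage of peaks overlapping rescue H3K9me3, rescue H3K4me3, rescue H3K27me3 or a protein-coding gene in 27 bands of 2000 peaks without original H3K4me3 or H3K9me3, ordered from the highest to the lowest H3K27ac fold enrichment. The shaded band holds the members, points are shares and bars 95% Wilson intervals. H3K9me3 and H3K4me3 are highest in the first band (37.5% and 31.6%), and the share inside genes is lowest there (42.3%).

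The 2 rescue marks divided the regions into 4 classes. Neither mark was found at 830 regions (41.5%), H3K9me3 alone at 539, H3K4me3 alone at 420 and both at 211. In 4 stretches of at least 1 Mb no H3K9me3 or H3K27me3 region was listed in either experiment, so the lack of H3K9me3 cannot be read there. The longest ran for 21.3 Mb on chromosome 14, from 47.1 to 68.4 Mb, and held 1542 H3K27ac peaks. It held 34 of the 2000 regions, 28 with neither mark and 6 with H3K4me3 alone, and a stretch of 2.87 Mb on chromosome 6 held 5 more. Without the peaks of such stretches, an alternative added after seeing the data, rescue H3K9me3 lay over 38.2% of 1961 regions, against 14.5% of weaker peaks (adjusted p = 9.15e-139, Fisher's exact test). The classes differed in position. Of the regions with H3K9me3 alone, 25.0% lay in a protein-coding gene (interval 21.6 to 28.9), and of those with both marks 23.7% (interval 18.5 to 29.9), against 54.5% of those with neither mark (interval 51.1 to 57.8). Regions with H3K4me3 alone stood at 49.5% (interval 44.8 to 54.3). The regions with H3K9me3 alone lay a median of 41.6 kb from the nearest annotated start site and 10.6 kb from original H3K4me3, those with neither mark 23.6 kb and 2.83 kb.

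The 10 strongest regions, of which 9 are described, came from all 4 classes. The first, with a fold enrichment of 23.5, was 1257 bp long and 9283 bp from Zfp493, a zinc finger gene, and overlapped both rescue marks. A second zinc finger gene, Zfp934, held the eighth, at 17.2, with the same 2 marks. The second, at 21.2, was 35.1 kb from Appbp2 and overlapped neither mark, although original H3K4me3 began 83 bp away. Regions with rescue H3K9me3 alone lay 121 kb from Zfp462 (19.3), 22.2 kb from Psg22, a pregnancy-specific glycoprotein gene (19.3), 131 kb from Tmem68 (17.2) and 86.6 kb from Ankrd46 (17.1). These are distances to protein-coding genes. An annotated start site lay 921 bp from the first of these regions, and 14903 bp or more from the others. Rescue H3K4me3 alone was found at the region 5195 bp from Tbx19, a T-box factor of the pituitary (18.6), and at that 3416 bp from Spats2 (17.2). The original H3K4me3 list had a peak within 1 kb of 4 of the 10, at Appbp2, Zfp462, Psg22 and Spats2.

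The regions lay outside genes more often than either comparison set. Of the 2000 regions, 845 (42.3%, interval 40.1 to 44.4) overlapped a protein-coding gene, compared with 60.8% of weaker peaks (interval 60.3 to 61.2) and 63.2% of H3K4me3-marked peaks (interval 61.1 to 65.3). The differences were -18.5 percentage points (adjusted p = 1.43e-59) and -20.9 (adjusted p = 7.76e-40, Fisher's exact tests). When the H3K27ac summit had to lie in the gene, the shares were 41.6% of regions and 52.4% of H3K4me3-marked peaks, a difference of -10.8. A gene end here was either the first or the last base of a protein-coding gene, so gene starts were included. Gene ends were near 173 regions (8.65% within 2500 bp), compared with 9.28% of weaker peaks. The difference of -0.63 points (interval -1.81 to 0.70) did not pass (adjusted p = 0.415, Fisher's exact test). For H3K4me3-marked peaks the share was 65.0%, a difference of -56.3 points (interval -58.7 to -53.8). Its p was below the smallest number the software can write (Fisher's exact test). H3K4me3 marks active promoters and its presence or absence chose these 2 sets, so a large difference was built in and the test adds little. Overlap of H3K4me3-marked peaks with genes was favoured in the same way, so the test inside genes against that set also adds little. The median distance to an annotated start site was 27.8 kb in the 1937 regions on chromosomes for which start sites were used here. It was 23.5 kb for weaker peaks and 169 bp for H3K4me3-marked peaks. Within 1 kb of a start site lay 38 of the 1937 regions (1.96%).

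The few promoters under the regions were poor in CpG, the dinucleotide that is dense in CpG island promoters and rare elsewhere. Of the 2000 regions, 15 (0.75%) overlapped the promoter window of a gene, from 250 bases before to 50 after the start in RefSeq (GRCm38.p6), against 250 of 52073 weaker peaks (0.48%) and 972 of 2000 H3K4me3-marked peaks (48.6%). Only 1937, 50451 and 1947 of these peaks lay on chromosomes for which start sites were used, so the shares can be too low. The 16 promoters involved held a median of 2 CG dinucleotides (0 to 9), compared with 3 in the 255 promoters under weaker peaks, 22 in the 1322 under H3K4me3-marked peaks and 7 in all 32851 promoters of the table. TATAAA, read on either strand, was in 4 of the 16 (25.0%), in 15.7% of promoters under weaker peaks, in 8.40% of those under H3K4me3-marked peaks and in 13.6% of all promoters. Among the 15 genes, of which those beyond the 5 strongest were named after their values were seen, were Vmn2r12 and Vmn1r1, vomeronasal receptors, Olfr298, an olfactory receptor, S100a3, a calcium-binding protein of hair, Sec23b, a coat protein of vesicles leaving the endoplasmic reticulum, and Sorl1, a sorting receptor. To show the base composition, the 3 strongest that lay wholly inside a region are printed 5′ to 3′ with each CG in capitals, beside the 2 promoters under the strongest H3K4me3-marked peak.
Vmn2r12, chr5:109097815-109098114, minus strand, 3 CG: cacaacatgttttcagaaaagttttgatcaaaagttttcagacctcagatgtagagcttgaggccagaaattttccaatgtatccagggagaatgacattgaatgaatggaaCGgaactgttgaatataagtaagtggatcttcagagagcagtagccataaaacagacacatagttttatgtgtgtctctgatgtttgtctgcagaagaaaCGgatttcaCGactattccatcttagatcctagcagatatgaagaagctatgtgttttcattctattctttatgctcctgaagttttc
Gm43837, chr5:64383070-64383369, plus strand, 4 CG: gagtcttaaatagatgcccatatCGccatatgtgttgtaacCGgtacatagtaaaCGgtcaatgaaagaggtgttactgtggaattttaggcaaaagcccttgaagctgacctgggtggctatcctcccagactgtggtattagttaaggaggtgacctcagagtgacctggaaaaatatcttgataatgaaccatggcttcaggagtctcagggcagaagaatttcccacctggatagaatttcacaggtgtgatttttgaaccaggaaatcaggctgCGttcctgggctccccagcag
Gm31108, chr6:143153882-143154181, minus strand, 2 CG: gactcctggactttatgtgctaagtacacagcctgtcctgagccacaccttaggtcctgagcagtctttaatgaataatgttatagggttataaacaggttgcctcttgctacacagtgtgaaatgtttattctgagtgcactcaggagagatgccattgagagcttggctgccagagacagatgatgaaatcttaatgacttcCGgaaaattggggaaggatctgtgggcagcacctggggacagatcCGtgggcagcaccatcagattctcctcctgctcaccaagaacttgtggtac
Bckdha (H3K4me3-marked), chr7:25658712-25659011, minus strand, 10 CG: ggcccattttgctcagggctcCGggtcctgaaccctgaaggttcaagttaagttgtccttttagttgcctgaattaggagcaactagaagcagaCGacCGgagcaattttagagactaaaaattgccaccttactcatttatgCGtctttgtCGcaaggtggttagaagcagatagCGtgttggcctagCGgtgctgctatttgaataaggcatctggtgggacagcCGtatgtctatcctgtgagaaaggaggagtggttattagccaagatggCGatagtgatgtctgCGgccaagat
Exosc5 (H3K4me3-marked), chr7:25658903-25659202, plus strand, 19 CG: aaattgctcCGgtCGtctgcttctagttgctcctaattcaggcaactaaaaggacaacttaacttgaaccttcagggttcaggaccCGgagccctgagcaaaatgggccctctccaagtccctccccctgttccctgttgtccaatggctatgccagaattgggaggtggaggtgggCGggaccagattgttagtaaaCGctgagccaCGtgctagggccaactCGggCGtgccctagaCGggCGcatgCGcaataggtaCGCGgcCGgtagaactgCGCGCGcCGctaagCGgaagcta

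The region over Vmn2r12 had a fold enrichment of 14.6 and overlapped both rescue marks, with original H3K4me3 272 bp away. The region over Gm43837, a lncRNA gene, had 12.6 and rescue H3K4me3, and that over Gm31108, also a lncRNA gene, had 8.66 and neither rescue mark. The next 2 promoters, of the lncRNA gene Gm40876 (8.11) and of Olfr298 (7.43), reached into their regions by 76 and 72 bases only. The single peak over Bckdha and Exosc5, which start in opposite directions, had a fold enrichment of 77.8, the highest of the H3K27ac list. A miRNA hairpin of RefSeq lay in 1 region, Mir181a-2 on chromosome 2, named after its value was seen, where fold enrichment was 6.08.

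Polycomb marks were rare at the regions. H3K27me3 of the original experiment overlapped 50 of 2000 regions (2.5%, interval 1.90 to 3.28), compared with 3.29% of weaker peaks (adjusted p = 0.0764) and 1.00% of H3K4me3-marked peaks (adjusted p = 0.000741, Fisher's exact tests). Rescue H3K27me3 overlapped 173 (8.65%, interval 7.50 to 9.96), compared with 10.1% of weaker peaks (adjusted p = 0.0522) and 2.75% of H3K4me3-marked peaks (adjusted p = 8.15e-16, Fisher's exact tests). The shares over all H3K27ac peaks were 5.3% and 12.8%. The rescue H3K27me3 list covered 930.2 Mb, compared with 362.9 Mb in the original list. The H3K27me3 regions lay over these peaks more often than over H3K4me3-marked ones, although with the 1000 strongest of each set the difference for the original list (0.80 points) no longer passed. Neither difference from weaker peaks passed as given, but the original list passed in 6 of 9 alternatives and the rescue list in 7 of 9, each time lower in the 2000 regions. Both H3K27me3 lists were met at 38 regions. The strongest was 101 kb from Ttc8, a subunit of the ciliary BBSome, at 10.5, and the others, named after their values were seen, included one 4462 bp from Unc5b, a netrin receptor (8.29).

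SUZ12 lay at 2 of 2000 regions in clone 439 (0.10%), 1 in clone 442 (0.05%) and 1 in WT clone 410 (0.05%). Over all H3K27ac peaks the shares were 2.38%, 2.61% and 1.70%. Of weaker peaks 0.04%, 0.05% and 0.03% had SUZ12 in these clones, and no difference from them passed (adjusted p = 0.265, 1 and 0.503, Fisher's exact tests). With 1 or 2 regions a difference of this size was not detectable. H3K4me3-marked peaks had SUZ12 at 0.75% in clone 439 (adjusted p = 0.00392), 1.05% in clone 442 (adjusted p = 2.22e-05) and 0.25% in WT (adjusted p = 0.265, Fisher's exact tests). The calls in both mutant clones were lost when the summit had to lie in the SUZ12 peak (-0.20 points each) or when 1000 peaks were taken (-0.40 and -0.50). The single region that both mutant clones held without WT lay in Ccna1, the meiotic cyclin A1, with a fold enrichment of 6.01, and the nearest WT SUZ12 peak began 230 bp away. The other, in the lists of clone 439 and of WT, lay 3694 bp from Mid1, a ubiquitin ligase gene on X, with a fold enrichment of 7.94. The list of clone 442 had a SUZ12 peak 1328 bp from it. At 1998 regions no SUZ12 list had a peak, and no region was tested for a difference between genotypes.

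Genes were then set beside the regions by distance. Of 21887 protein-coding genes, 2756 (12.6%) had a region within 50 kb, 2308 of them a single one. Naive pluripotency genes had one in 16 of 40 cases (40.0%, interval 26.3 to 55.4). Within 20 kb the count was 8 of 40, against 7.42% of all genes. The strongest was 29.4 kb from Fgf4, the ESC growth factor that signals through ERK, and 6629 bp from the neighbouring Fgf3. It had a fold enrichment of 14.2 and overlapped rescue H3K27me3, but neither rescue H3K4me3 nor rescue H3K9me3. Zfp42, which encodes the naive marker REX1, had 2 regions (10.5 and 7.08) at 16.1 and 33.6 kb, both with rescue H3K4me3. Sall4, a zinc finger factor of the pluripotency network, had a region 10.4 kb away (10.1), and Klf5, a Krüppel-like factor of self-renewal, had one 5.49 kb away (9.92) that overlapped rescue H3K9me3. The other 12, named after their values were seen, were Dppa3, Utf1, Manba, Klf4, Nr5a2, Fbxo15, Tfcp2l1, Trim71, Spp1, Tet2, Dppa5a and Sox2. Within 50 kb, their strongest regions lay between 9.09 at Dppa3 and 6.14 at Sox2, near the lower limit of the rule. A stronger region (13.1) lay 56495 bp from Klf4, beyond this window. Pou5f1, Nanog, Esrrb and Tdgf1 had no such region within 50 kb.

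**Figure D4:**
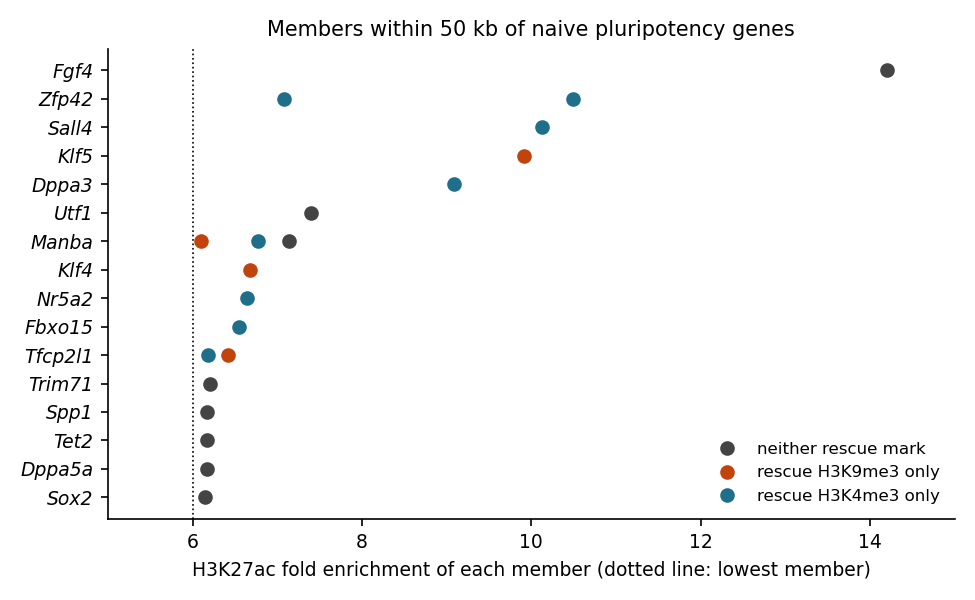
H3K27ac fold enrichment of each region within 50 kb of a naive pluripotency gene (1 row per gene, 16 of 40 genes), coloured by overlap with rescue H3K4me3 and rescue H3K9me3. The dotted line is the lowest fold enrichment of the 2000 regions, 6.01. Fgf4 stands at 14.2, and Sox2 at 6.14.

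Chromatin regulators of ESCs had a region within 50 kb in 15 of 36 cases (41.7%, interval 27.1 to 57.8) and within 20 kb in 12 of 36. The strongest were at Ncoa3, a nuclear receptor coactivator (9.29, inside the gene), Trim28, the corepressor of KRAB zinc finger proteins (9.22, 4.34 kb away), Pcgf6, a subunit of a variant PRC1 (7.87, 1.71 kb away) and Mycn (7.69, 40.9 kb away). Ncoa3 and Mycn had 3 regions each. Signalling feedback genes had one in 10 of 41 cases (24.4%, interval 13.8 to 39.3), with the strongest 37.6 kb from Id2, a BMP target (8.85), 25.2 kb from Sp5, a Wnt target (8.20), 26.6 kb from Socs2, an inhibitor of JAK/STAT signalling (6.81), and 41.6 kb from Bmpr1a, a BMP receptor (6.43). Formative and primed genes stood at 6 of 27 (22.2%, interval 10.6 to 40.8). Grhl2, a grainyhead factor of epithelia, held one at 8.73, Sox4 had one 37.7 kb away (7.48), and Zic2 and Zic5 shared one 42.0 and 25.8 kb away (6.62).

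For the formative and primed, neural, fibroblast, mesoderm and endoderm, 2-cell-like, germline and ribosomal protein lists, the intervals held the 12.6% of all genes. Neural regulators had a region in 1 of 25 cases (interval 0.71 to 19.5), 45.4 kb from Sox1 (6.06), and fibroblast genes in 1 of 20 (interval 0.89 to 23.6), 15.3 kb from S100a4 (6.76). Mesoderm and endoderm regulators stood at 3 of 25 (interval 4.17 to 30.0), with Gata6 (8.50, 47.2 kb away), Hand1 (6.65) and Tbx6 (6.30). The 2-cell-like genes stood at 1 of 22 (interval 0.81 to 21.8), Zfp352 (11.0, 44.4 kb away), with both rescue marks on its strongest region, and germline genes at 5 of 30 (interval 7.34 to 33.6), led by one region (8.67) 18.6 kb from Tex19.1 and 7.98 kb from Tex19.2, and by regions near Piwil1 (7.81) and in Sycp1 (7.37). Hox genes had none of 39 (interval 0 to 8.97) and olfactory receptor genes 42 of 1110 (3.78%, interval 2.81 to 5.07), both intervals below 12.6%. The strongest at olfactory receptors was a single region (14.6) within 50 kb of 5 genes, among them Olfr504, Olfr506, Olfr507 and Olfr508, with rescue H3K9me3. Ribosomal protein genes stood at 14 of 82 (17.1%, interval 10.5 to 26.6), among them Rps20 (11.2), Rps27a (10.7) and Rpl22 (7.57). Genes of a list that lie side by side can share a region, and these counts carry no test.

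**Figure D5:**
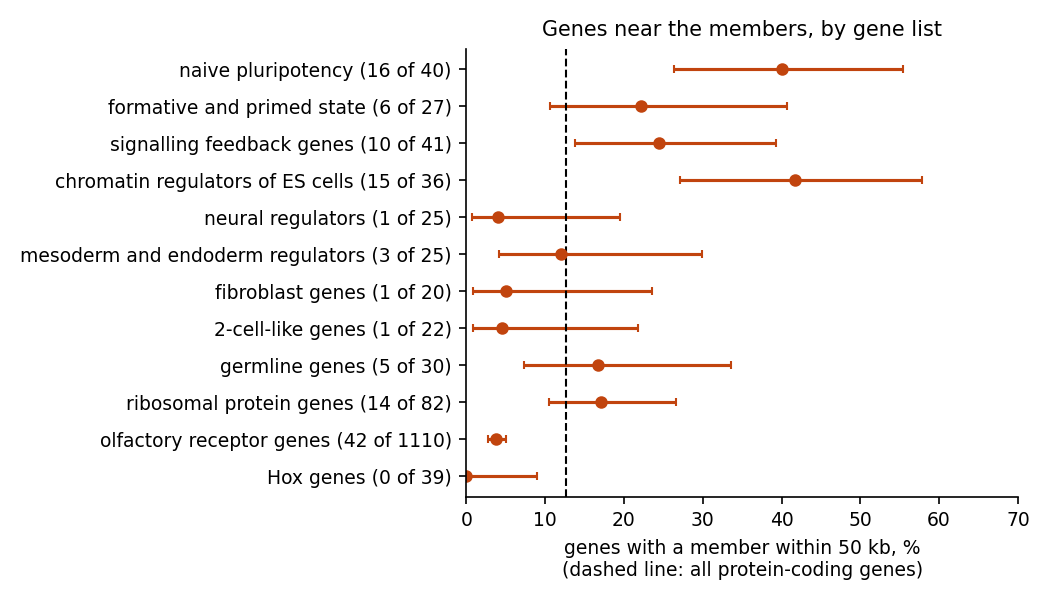
Percentage of genes in each list with at least 1 of the 2000 regions within 50 kb of the gene, with the counts in brackets. Bars are 95% Wilson intervals and the dashed line is the share over all protein-coding genes, 12.6%. Naive pluripotency genes (40.0%) and chromatin regulators of ESCs (41.7%) stand highest, Hox genes (0 of 39) lowest.

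Most regions stood alone among the 2000. Merged within 10 kb they formed 1801 clusters, and 1644 regions (82.2%) had no other of the 2000 that close. Within the whole H3K27ac list, a region had a median of 4 other peaks within 10 kb, as did weaker peaks. At 1743 regions (87.2%) at least 1 of these was weaker than the region itself. The same was found at 31110 of 52073 weaker peaks (59.7%) and at 1960 of 2000 H3K4me3-marked peaks. The choice of the regions by high fold enrichment favoured a weaker neighbour, so this share is not a separate feature of them. The 5 largest clusters held 5 regions each. The strongest began 1.53 kb from Mid1 on X, spanned 14.0 kb, reached 13.0 and had rescue H3K9me3 over all 5. Mid1 crosses the boundary of the pseudoautosomal region in laboratory mice, where X and Y share sequence. The others lay over Samd9l, an interferon-induced gene (up to 12.3, rescue H3K9me3 over none), 359.6 kb from Cdh10, a cadherin (up to 11.8, H3K9me3 over all 5), 27.3 kb from Trim24 (up to 10.7, H3K9me3 over all 5) and 5.82 kb from Gm9595 (up to 8.85, H3K9me3 over none). In these 5 clusters rescue H3K9me3 therefore overlapped all regions or none. This did not hold for every smaller cluster, since near Dynlt1b it overlapped 3 of 4 regions.

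Chromosomes differed in how many of their eligible peaks reached the 2000. Leaving out Y, with 1 eligible peak that was not among the 2000, the share was 3.70% over all, from 3.07% on chromosome 2 (133 of 4327) to 6.91% on X (55 of 796), with chromosome 13 at 4.87% (122 of 2504). Rescue H3K9me3 lay over 23.0% of the regions on chromosome 11 and 52.7% of those on X.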

How the data were processed

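The authors deposited H3K27ac, H3K4me3 and SUZ12 peaks with a ratio (the fold enrichment of the peak over its background), a −log10 q-value and a summit offset in bases, and H3K9me3 and H3K27me3 regions with a score of unknown scale that was not used. Replicates had been merged by the authors. The genome was mm10, and MACS2 2.1.0, BWA 0.7.15, cutadapt 2.5 and Picard 2.20.7 stand in the submitters' processing notes. How reads mapping to several places were treated is not stated there. Of 136 samples, 26 lay behind the 10 lists.

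Overlap meant at least 1 bp. Starts were read from 0 in narrow lists and from 1 in broad ones, and printed positions count from 1. Genes and promoters came from RefSeq GRCm38.p6, and motifs of the regions themselves were not analysed here. Fisher tests (scipy 1.17.1, statsmodels 0.14.6) were checked on simulated data. Named were the 10 strongest regions, those at the limit, the 5 largest clusters, up to 4 genes per list, regions with SUZ12 and 5 promoters. Some items that this rule names are withheld and not reported here. Of 1501 listed genes, 1497 were found. The regions, gene lists and tests were chosen with earlier results of these data known. Alternatives were summit overlap, 50% coverage, ranking by q-value, other set sizes, stricter exclusion, 1 peak per cluster, and, added after seeing the data, width classes, position in genes and leaving out stretches of at least 1 Mb with no broad region.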

Additional observations from a re-analysis of the deposited data

How the results depend on the processing

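Differences are in percentage points, the 2000 regions minus the other set. Over all alternatives 126 of 161 differences of shares kept direction and side of the threshold, and those for rescue H3K9me3 and for position inside genes kept both under each of theirs. Rescue H3K4me3 against weaker peaks kept them in every alternative except at widths of 1000 bp or more, where the difference was 3.13 (adjusted p = 0.113, Fisher's exact test). Original H3K27me3 against weaker peaks passed with summits (-0.94), ranking by −log10 q (-0.95), the 1000 strongest (-1.80), the 4000 strongest (-0.72), no H3K4me3 in either list (-0.93) and 1 peak per cluster (-2.21). Rescue H3K27me3 against weaker peaks passed with summits (-1.92), 50% coverage (-1.91), ranking by −log10 q (-2.18), the 1000 strongest (-2.70), the 4000 strongest (-1.38), no H3K4me3 in either list (-1.63) and 1 peak per cluster (-5.50). Against H3K4me3-marked peaks, original H3K27me3 lost its call with the 1000 strongest (0.80). SUZ12 against H3K4me3-marked peaks lost its call with summits (-0.20 in clone 439 and -0.20 in clone 442), with 50% coverage (-0.20 and -0.25) and with the 1000 strongest (-0.40 and -0.50). In WT it passed with the 4000 strongest (-0.53) and 1 peak per cluster (-0.29) and turned with the 1000 strongest (0.10). Against weaker peaks, SUZ12 passed in clone 439 with no H3K4me3 in either list (0.12) and turned with 1 peak per cluster (-0.0021). In clone 442 it turned with summits (0.0058), 50% coverage (0.0058), the 4000 strongest (0.023), no H3K4me3 in either list (0.064) and no original H3K4me3 within 1 kb (0.031). In WT it turned with 1 peak per cluster (-0.053). These SUZ12 values rest on 0 to 3 regions. The position within 2500 bp of a gene end turned with ranking by −log10 q (0.56), the 4000 strongest (0.10) and no H3K4me3 in either list (0.29), never past the threshold. The cause of these shifts was not tested. Genes with a region within 20 kb in place of 50 kb were 7.42% of all and 20% of naive pluripotency genes, and within 100 kb 19.8% and 47.5%. No paired analysis was possible because each list pools its replicates. For the same reason no replicate could be left out, and the depth of the lists is unknown.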
